A study of Arabidopsis thaliana with 36 samples.

Results

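The comparison of cold-acclimated (ACC) with non-acclimated (NonA) rosettes of the Arabidopsis thaliana wild type Col0 rests on 6 of the 36 RNA-seq libraries of the series, 3 per group, chosen by their titles. Plants were raised on soil in stages and ended in long days with 16 h of light at 200 µE m-2 s-1, 20 °C by day and 16 °C by night. Rosettes 28 days old were taken as NonA, and ACC rosettes spent 3 further days at 4 °C under 90 µE m-2 s-1 with the same 16 h of light. Temperature, light intensity and 3 days of age therefore change together and cannot be told apart. Plants stood 10 to a pot, and the number pooled into 1 library is not stated in the labels. The labels number the libraries of a group as experiments 1 to 3 without naming separate plants, so p-values measure the spread between these libraries. The other 30 libraries, of Col0 after its return to warmth and of the mutant lines mbf1c and jub1, entered the same model, and the mutant ACC and NonA libraries are used for a comparison of responses.

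In Arabidopsis, days at low but non-freezing temperature raise freezing tolerance, a process called cold acclimation. CBF transcription factors, induced within hours of the transfer, bind CCGAC elements (CRT/DRE) and raise COR genes whose products protect membranes, while growth slows and sugars, flavonoids and unsaturated lipids build up. Enzymes and ribosomes work more slowly in the cold, and RNA chaperones and the machinery of protein synthesis are known to be raised in many cold-treated organisms. A whole rosette mixes leaf blades, petioles, veins and the apex, and in such bulk RNA fewer cells of a type and less RNA per cell cannot be told apart.

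The ACC libraries held 27106991, 23484886 and 63178347 counts in genes for replicates 1, 2 and 3, and the NonA libraries 18801747, 19185462 and 24779515. Levels are given as CPM, read counts scaled to library size with TMM factors, and triplets of values stand in the order of replicates 1, 2 and 3. All 8 rosette leaf markers were detected in every library, with a summed level of 21182 to 36903 CPM at ACC and 43827 to 53489 CPM at NonA. Of 8 floral markers 4 to 6 were detected, summing to 0.730 to 1.92 CPM, and of 8 root markers 4 to 6, summing to 2.30 to 7.45 CPM, with EXPA7 and EXPA18 at 0 in all 6 libraries. Shoot meristem markers summed to 6.44 to 8.22 CPM at ACC and 8.52 to 12 CPM at NonA. ACC replicate 3, the deepest library, lay nearer to NonA than the other ACC libraries did. Over the 3910 genes called higher in both mutant lines, the median log2 difference from the NonA mean was 1.23, 1.11 and 0.93 for ACC replicates 1, 2 and 3. Over the 4319 genes called lower in both it was −1.22, −1.11 and −0.85. Without ACC replicate 3 the counts of called genes were 4201 higher and 4042 lower, and 7659 of the genes called with it were called again. On the first principal component of log2 CPM over all 36 libraries, ACC replicate 3 was nearest to NonA in each line. ACC replicates 1, 2 and 3 were at −147, −133 and −89.3 in Col0 and −166, −120 and −92.6 in mbf1c. In jub1 they were at −115, −145 and −101, and NonA libraries of the lines lay from −21.1 to 96. The jub1 ACC replicate 3 library held 15230460 counts in genes, the fewest among these ACC libraries. The cause of this shift was not tested.

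Of 34262 genes counted, 20679 had enough counts to be tested, and 8579 of them (41.5%) were called at an adjusted p under 0.05 (edgeR's quasi-likelihood test, Benjamini-Hochberg over all tested genes). At ACC 4304 genes (20.8%) were higher and 4275 (20.7%) were lower. Leaving out NonA replicate 2 brought the rises to 2775, and leaving out ACC replicate 1 or NonA replicate 3 to 2968 and 2874. Leaving out ACC replicate 1 brought the falls to 2605. The changes were mostly moderate. Of the genes that rose, 1291 (30%) changed by less than 2-fold, 2298 (53.4%) by 2-fold to 4-fold and 715 (16.6%) by 4-fold or more. Of those that fell, the same classes held 1070 (25%), 2122 (49.6%) and 1083 (25.3%). The median change was 2.44-fold among rises and 2.66-fold among falls. Over all tested genes the log2 fold change had a median of 0.01, quartiles of −0.77 and 0.75, and 5th and 95th percentiles of −2.12 and 1.83. In 6784 genes (32.8%) all 3 ACC values lay above all 3 NonA values, and in 6360 (30.8%) below. Among called genes 4250 of the rises (98.7%) and 4194 of the falls (98.1%) had no such overlap.

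**Figure D1:**
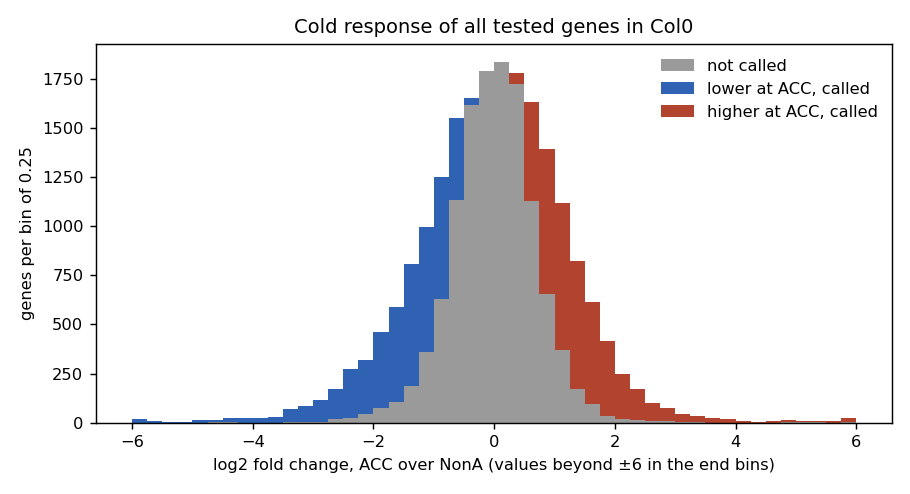
Number of tested genes (vertical axis) by log2 fold change of ACC over NonA (horizontal axis, bins of 0.25), with called rises in red, called falls in blue and genes not called in grey. The called genes form shoulders on both sides of a centre at 0.01, with 4304 rises and 4275 falls.

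Little of the transcriptome could be placed near no change. In 475 genes (2.30%) the 95% interval of the log2 fold change lay within −0.5 to 0.5, and in 4992 (24.1%) within −1 to 1. The 339 called genes among the latter had changed by less than 2-fold with their whole interval. Of the 12100 genes not called, 7447 (61.5%) had an interval reaching beyond 2-fold. The share called rose with expression, from 24.7% in the lowest quintile of genes by mean CPM to 52.6% in the highest, while the median standard error fell from 0.66 to 0.30. Chromosomes 1 to 5 differed little in the share called, 40.9% to 42.2%. Of 90 plastid genes 16.7% were called, and of 18 mitochondrial genes 22.2%. Organellar genes held only 0.026% to 0.046% of gene counts in the Col0 ACC and NonA libraries. Their median standard errors were 0.65 and 0.68, beside 0.36 to 0.37 on chromosomes 1 to 5, so these shares are not directly comparable.

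Counts were spread over more genes at ACC. In NonA the 100 most abundant genes took 32.7%, 38.3% and 40.4% of gene counts, and in ACC 19.2%, 19.5% and 26.4%. The smallest number of genes that together reached 0.5 of the counts was 455, 306 and 242 at NonA and 956, 901 and 606 at ACC. The genes called lower fell from 43.6%, 50.9% and 50.9% of counts to 15.3%, 16.5% and 24.3%. Those called higher went from 12.6%, 8.95% and 8.71% to 36.8%, 34.9% and 26.7%. The choice of these genes fixes the direction of both shares, which are a description.

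Named genes follow the rule given in the processing notes, with ± for the standard error of a log2 fold change. The largest changes in level were sought only among called genes whose groups did not overlap. The 8 largest rises there, per kilobase of transcript, were in COR15A, COR15B, AZI1, TT4, KIN1, ELIP1, ELIP2 and AT5G60390. COR15A (AT2G42540), a chloroplast protein that protects membranes in freezing, was at 151, 144 and 184 CPM at NonA and 3975, 5396 and 5809.7 CPM at ACC (log2 fold change 4.98 ± 1.07, adjusted p = 0.00078). Its neighbour COR15B (AT2G42530) was at 65, 53.2 and 54.1 CPM at NonA and 1451, 1389 and 1449 CPM at ACC (log2 fold change 4.64 ± 0.68, adjusted p = 1.1e-05). KIN1 (AT5G15960), another small cold-induced hydrophilic protein, was at 8.44, 12.3 and 6.76 CPM at NonA and 489.8, 971 and 528 CPM at ACC (log2 fold change 6.18 ± 0.95, adjusted p = 2e-05). ACC replicate 3 was the highest ACC value of COR15A and lay between the other ACC values of COR15B and KIN1.

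Genes known to respond to light differed between the ACC libraries, as did many others. ACC replicate 3 was the lowest ACC value in 69.0% of the 3910 genes called higher in both mutant lines. It was the highest in 71.7% of the 4319 called lower in both. ELIP1 (AT3G22840), an early light-induced protein that binds pigments under light stress, was at 5.35, 6.22 and 11.2 CPM at NonA and 3449, 3549 and 463 CPM at ACC (log2 fold change 8.35 ± 0.90, adjusted p = 1.9e-07). Its homologue ELIP2 (AT4G14690) was at 3.24, 2.07 and 5.87 CPM at NonA and 1464, 1479 and 268 CPM at ACC (log2 fold change 8.16 ± 0.89, adjusted p = 2e-07). TT4 (AT5G13930), the chalcone synthase that opens flavonoid synthesis, was at 34.2, 34.5 and 49.2 CPM at NonA and 1843, 1746 and 813 CPM at ACC (log2 fold change 5.22 ± 0.72, adjusted p = 5.8e-06). In all 3, ACC replicate 3 was the lowest ACC value. AZI1 (AT4G12470), a lipid transfer protein-like gene of systemic immunity, was at 31.8, 51.5 and 33.4 CPM at NonA and 1099, 683 and 1978 CPM at ACC (log2 fold change 5.01 ± 0.64, adjusted p = 2e-06), with ACC replicate 3 the highest. AT5G60390, a translation elongation factor 1-alpha gene often used as a reference in quantitative PCR, was at 1123, 1046 and 1021 CPM at NonA and 2484, 2365 and 3457 CPM at ACC (log2 fold change 1.38 ± 0.40, adjusted p = 0.0076). It rose in every ACC library.

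The largest falls in level, again among called genes whose groups did not overlap, were in photosynthesis genes. RBCS3B (AT5G38410), a Rubisco small subunit, was at 6527, 8645 and 12386 CPM at NonA and 579.7, 629 and 1248 CPM at ACC (log2 fold change −3.49 ± 0.41, adjusted p = 5.2e-07). PSAL (AT4G12800), a photosystem I subunit, was at 5886, 9990.5 and 11126 CPM at NonA and 804, 903 and 2434 CPM at ACC (log2 fold change −2.71 ± 0.53, adjusted p = 0.00028), and PSBR (AT1G79040), a photosystem II subunit, at 6432, 11486 and 12194 CPM at NonA and 1049.7, 1186 and 2338 CPM at ACC (log2 fold change −2.72 ± 0.56, adjusted p = 0.0005). ACC replicate 3 was the highest ACC value in each of these genes. The antenna genes LHCB3, CAB3, LHCA4 and LHCA1 fell with log2 fold changes of −2.62 ± 0.54, −2.6 ± 0.64, −2.58 ± 0.47 and −2.21 ± 0.51 (adjusted p = 0.00055, 0.0025, 0.00013 and 0.0014). CAB1 (AT1G29930), the most abundant of the antenna genes named here, was at 23025, 39467 and 35962 CPM at NonA and 6302, 6252 and 22069.7 CPM at ACC (log2 fold change −1.51 ± 0.55, adjusted p = 0.028). Its values came closest, 22069.7 CPM at ACC against 23025 at NonA, and the call was lost without ACC replicate 1 (adjusted p = 0.14), ACC replicate 2 (0.13), NonA replicate 2 (0.086) or NonA replicate 3 (0.071). It was also lost with the length correction described further on (0.065).

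**Figure D2:**
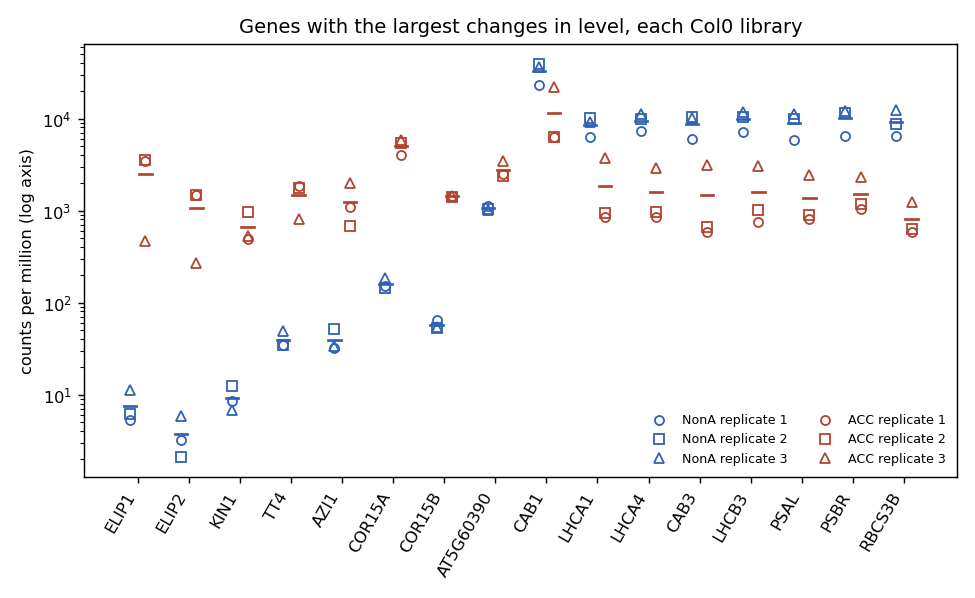
Level of the 8 rises and 8 falls with the largest change in CPM per kilobase, in CPM (vertical log axis), for each gene (horizontal axis). Open symbols are single libraries, blue for NonA and red for ACC, and bars are group means. ACC replicate 3 (red triangles) is the lowest ACC library for ELIP1, ELIP2 and TT4 and the highest for the 8 falling genes. Only called genes whose groups did not overlap could be chosen.

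The changes best separated from the spread between libraries included GBSS1, given with the starch genes below, and less familiar genes. AT4G38380, annotated as a MATE efflux transporter, was at 3.14, 2.86 and 2.70 CPM at NonA and 36, 34.3 and 35.7 CPM at ACC (log2 fold change 3.61 ± 0.26, adjusted p = 3.9e-10). AT2G16890, a UDP-glycosyltransferase gene, was at 5.69, 4.93 and 6.29 CPM at NonA and 110.5, 90.7 and 104 CPM at ACC (log2 fold change 4.17 ± 0.38, adjusted p = 2.8e-08), and CLC-B (AT3G27170), an anion channel family member, at 1.96, 2.41 and 2.79 CPM at NonA and 23.2, 29 and 25.6 CPM at ACC (log2 fold change 3.44 ± 0.33, adjusted p = 3.7e-08). The ACC values of the first ranged from 34.3 to 36 CPM. AT1G12370, a photolyase gene of the repair of ultraviolet damage, was at 2.06, 2.35 and 2.03 CPM at NonA and 21.5, 13.7 and 13.5 CPM at ACC (log2 fold change 2.92 ± 0.29, adjusted p = 6.1e-08). Among falls, Fes1B (AT3G53800), of a family of Hsp70 exchange factors, was at 65.3, 60.6 and 66.6 CPM at NonA and 2.22, 2.66 and 4.84 CPM at ACC (log2 fold change −4.30 ± 0.34, adjusted p = 2e-09). KCS12 (AT2G28630), a 3-ketoacyl-CoA synthase of very long fatty acid synthesis, was at 45, 69.5 and 44.1 CPM at NonA and 2.02, 3.94 and 3.88 CPM at ACC (log2 fold change −4.01 ± 0.37, adjusted p = 2.8e-08). BCCP2 (AT5G15530), a subunit of plastid acetyl-CoA carboxylase, was at 18.3, 17.3 and 23.3 CPM at NonA and 2.55, 2.00 and 2.66 CPM at ACC (log2 fold change −3.02 ± 0.27, adjusted p = 2.4e-08). Both fatty acid genes thus fell in all ACC libraries, as did AT1G73750, a hydrolase family gene, and AT4G34920, a phospholipase C-like gene, with log2 fold changes of −2.52 ± 0.22 and −2.55 ± 0.23 (adjusted p = 2.1e-08 and 2.4e-08).

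Very few genes went from silence to expression. At least 1 CPM in all ACC libraries with under 0.1 CPM in all NonA libraries was found in 2 genes. AT4G27360, annotated as a dynein light chain gene, was at 0 in all NonA libraries and at 1.09, 1.18 and 1.5 CPM at ACC. WNK9 (AT5G28080), a WNK kinase, was at 0.0491, 0 and 0 CPM at NonA and 2.44, 1.44 and 1.23 CPM at ACC. The reverse pattern held in 1 gene, AT2G29300, a dehydrogenase-like gene, at 1.28, 1.34 and 3.64 CPM at NonA and 0.0842, 0.0656 and 0.0592 CPM at ACC.

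Gene lists and families are described by how many tested members rose and fell, beside 20.8% and 20.7% of all tested genes, and by their median log2 fold change beside 0.01. A range after a count gives its lowest and highest value over the alternatives named in the processing notes. Upstream cold signalling genes were mostly not called after 3 days. Of 18 upstream cold signalling genes 2 rose (2 to 6) and 1 fell (0 to 4), with a median of 0.02. HOS1 (AT2G39810), a ubiquitin ligase that acts on the CBF activator ICE1, was at 13.7, 9.69 and 8.23 CPM at NonA and 41.3, 40 and 27.6 CPM at ACC (log2 fold change 1.78 ± 0.50, adjusted p = 0.0065). OST1 (AT4G33950), a kinase of abscisic acid and cold signalling, was at 7.31, 5.43 and 6.95 CPM at NonA and 19.4, 21.4 and 12.1 CPM at ACC (log2 fold change 1.42 ± 0.29, adjusted p = 0.00041). TEM1 (AT1G25560), a RAV family repressor, was at 51.8, 133 and 87.9 CPM at NonA and 12.8, 17.9 and 48.8 CPM at ACC (log2 fold change −1.78 ± 0.66, adjusted p = 0.034), a call that was lost without any 1 of ACC replicates 1 and 2 and NonA replicates 2 and 3 (adjusted p = 0.062 to 0.15). CBF1 and CBF2 were not called, with log2 fold changes of −0.08 ± 0.86 and −0.43 ± 0.88, nor was DREB1A (CBF3) at 0.43 ± 0.58. Their ACC values after 3 days were 2.72, 1.61 and 5.31 CPM for CBF1, 2.55, 1.34 and 10.8 CPM for CBF2 and 11.4, 8.43 and 8.76 CPM for DREB1A.

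Light signalling genes changed in both directions. Of 28 members 12 rose (7 to 15) and 5 fell (4 to 12), with a median of 0.93. The bZIP factors downstream of photoreceptors rose: HYH (AT3G17609) was at 2.01, 1.96 and 2.46 CPM at NonA and 34.8, 29 and 15.3 CPM at ACC (log2 fold change 3.62 ± 0.46, adjusted p = 1.8e-06), and HY5 rose from 2.73 ± 0.794 to 8.46 ± 3.08 CPM (SD, n = 3). So did their repressors, the ubiquitin ligase gene COP1 (1.67 ± 0.42) and its partners SPA1 to SPA4 (1.33, 1.48, 2.79 and 2.17). PHYB, PHYE and PHOT2, which encode photoreceptors, rose by 1.38, 1.57 and 1.31. PIF4 (AT2G43010), a growth-promoting factor that phytochromes remove, was at 84.3, 125 and 124 CPM at NonA and 19.5, 20.2 and 44.2 CPM at ACC (log2 fold change −1.99 ± 0.30, adjusted p = 1.7e-05). PIL5 (PIF1, AT2G20180) was at 21.9, 21.4 and 24.2 CPM at NonA and 6.82, 8.86 and 10.9 CPM at ACC (log2 fold change −1.34 ± 0.22, adjusted p = 4.3e-05), and FHY1, which carries phytochrome A into the nucleus, fell by 2.44 on the log2 scale. With the length correction 9 members were called higher and 12 lower, with a median of −0.04.

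Genes of chlorophyll and haem synthesis were lower or not called. Of 29 tetrapyrrole genes 12 fell (6 to 15), with a median of −0.48, and 0 rose in edgeR (0 to 4 over the alternatives). HEMD (AT2G26540), uroporphyrinogen III synthase, was at 49.5, 63.3 and 71.2 CPM at NonA and 15.3, 14.7 and 20.9 CPM at ACC (log2 fold change −1.85 ± 0.30, adjusted p = 3.8e-05). HEMB1 (AT1G69740) was at 312, 305 and 350 CPM at NonA and 109.9, 99.9 and 176 CPM at ACC (log2 fold change −1.32 ± 0.24, adjusted p = 0.00015), and HEME1 (AT3G14930), uroporphyrinogen decarboxylase, at 273, 224 and 296 CPM at NonA and 78.5, 77.8 and 115 CPM at ACC (log2 fold change −1.55 ± 0.24, adjusted p = 1.8e-05). These steps lie in the middle of the pathway, while HEMA1, at its entry, was at 277 ± 50.6 CPM at NonA and 370.2 ± 47.1 CPM at ACC and not called. GUN5, a subunit of the magnesium chelatase at the branch to chlorophyll, was not called either at 1.29 ± 0.62, the highest value of the list. Of 17 Calvin-Benson cycle genes 5 fell (2 to 8) and 0 rose (0 to 1), with a median of −0.48. CP12-1, a small protein that holds cycle enzymes together, was at 1263, 1641 and 2201 CPM at NonA and 334, 375 and 632 CPM at ACC (log2 fold change −1.93 ± 0.44, adjusted p = 0.0014), and GAPA-2, a glyceraldehyde phosphate dehydrogenase subunit, at 2406, 2796 and 4461 CPM at NonA and 593, 727 and 1481 CPM at ACC (log2 fold change −1.79 ± 0.42, adjusted p = 0.0017). CP12-3, of the same small family, was at 1.72, 2.07 and 2.55 CPM at NonA and 1.01, 1.48 and 0.696 CPM at ACC (log2 fold change −1.01 ± 0.33, adjusted p = 0.017), a call lost with the length correction (adjusted p = 0.48) and without ACC replicate 1 (0.067), ACC replicate 3 (0.10) or NonA replicate 3 (0.082). RCA, PRK and GAPB were not called (−0.29 ± 0.50, −0.39 ± 0.29 and −0.31 ± 0.30).

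Photorespiration and photoprotection did not move one way. Of 18 photorespiration genes 4 rose (1 to 5) and 5 fell (3 to 6). GLDP2 (AT2G26080), the P-protein of glycine decarboxylase, was at 136, 147 and 115 CPM at NonA and 661, 598 and 608 CPM at ACC (log2 fold change 2.23 ± 0.52, adjusted p = 0.0016). GLDP1 rose as well (1.99 ± 0.65), while GDCH, the H-protein of the same complex, fell (−0.86 ± 0.32) and mtLPD1, its L-protein, was at 302, 215 and 348 CPM at NonA and 122, 144 and 146 CPM at ACC (log2 fold change −1.07 ± 0.26, adjusted p = 0.0024). Within 1 enzyme complex the subunits therefore changed in opposite directions, and their genes differ in exonic length, with 3967 bases in GLDP2, 3586 in GLDP1, 2422 in mtLPD1 and 944 in GDCH. LrgB (PLGG1, AT1G32080), the plastid glycolate and glycerate transporter, was at 633, 651 and 1049 CPM at NonA and 186, 216 and 343 CPM at ACC (log2 fold change −1.65 ± 0.41, adjusted p = 0.0025). Of 24 photoprotection and carotenoid genes 6 rose (1 to 8) and 4 fell (1 to 5). NCED4 (CCD4, AT4G19170), a carotenoid cleavage dioxygenase, was at 365, 587 and 629.9 CPM at NonA and 26, 32.1 and 134 CPM at ACC (log2 fold change −3.04 ± 0.65, adjusted p = 0.00076). BETA-OHASE 2 (AT5G52570), a carotene hydroxylase, was at 3.43, 5.55 and 6.58 CPM at NonA and 12.4, 11.2 and 17.4 CPM at ACC (log2 fold change 1.40 ± 0.34, adjusted p = 0.0023), and LYC (AT3G10230), lycopene cyclase, at 45.3, 36.5 and 45.3 CPM at NonA and 67.9, 72.1 and 69.1 CPM at ACC (log2 fold change 0.72 ± 0.23, adjusted p = 0.013). The call of LYC was lost without NonA replicate 2 (adjusted p = 0.067). In each gene the groups did not overlap. NPQ4, which encodes the quenching protein PsbS, was at 2751 ± 656 CPM at NonA and 2176 ± 181 CPM at ACC and was not called.

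Starch and maltose genes were among the lists with most rises. Of 32 members 16 rose (10 to 22) and 4 fell (3 to 7), with a median of 0.86. GBSS1 (AT1G32900), the starch synthase that makes amylose, was at 11.7, 12.3 and 13.3 CPM at NonA and 249, 294 and 126 CPM at ACC (log2 fold change 4.16 ± 0.32, adjusted p = 1.8e-09). GPT2 (AT1G61800), a plastid glucose 6-phosphate transporter, was at 12.1, 13.4 and 8.47 CPM at NonA and 239, 301 and 65.6 CPM at ACC (log2 fold change 4.16 ± 0.73, adjusted p = 9.7e-05), and ISA3 (AT4G09020), a debranching enzyme, at 65.9, 54.8 and 49.5 CPM at NonA and 389, 332 and 159.9 CPM at ACC (log2 fold change 2.37 ± 0.35, adjusted p = 1.5e-05). In all 3 genes ACC replicate 3 was the lowest ACC value and lay above every NonA value. Rises covered both directions of the pathway: APL3, SBE2.1 and SS1 of synthesis rose by 2.42, 2.61 and 1.26, and PWD, SEX4, PHS2 and DPE2 of breakdown by 2.03, 1.84, 1.79 and 1.31. ISA1 and DPE1 fell (−1.15 and −0.92). With the length correction 13 members were called higher and 7 lower.

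Membrane lipid genes rose in 10 of 27 cases (6 to 10) and fell in 3 (3 to 6), with a median of 0.13. SSI2 (FAB2, AT2G43710), the stearoyl desaturase that makes the first double bond, was at 120.1, 108 and 109 CPM at NonA and 333, 279 and 375 CPM at ACC (log2 fold change 1.55 ± 0.28, adjusted p = 0.00013). FAD8, the cold-active plastid omega-3 desaturase, rose from 34.9 ± 9.25 to 115 ± 13.7 CPM, while FAD2, FAD3, FAD5, FAD6 and FAD7 were not called, with log2 fold changes between −0.40 and 0.37. ACBP6 (AT1G31812), a small acyl-CoA carrier, was at 316, 395 and 389.6 CPM at NonA and 95.8, 105 and 151 CPM at ACC (log2 fold change −1.65 ± 0.31, adjusted p = 0.00024), and ACBP3 (AT4G24230) at 8.73, 9.47 and 11.8 CPM at NonA and 2.44, 2.30 and 2.95 CPM at ACC (log2 fold change −1.96 ± 0.22, adjusted p = 2.9e-07). Both acyl-CoA-binding genes fell in all ACC libraries.

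Water channels and auxin-induced growth genes fell furthest by median, with the lowest medians of the 17 lists and 17 families. Of 18 aquaporins of the plasma membrane (PIP) and tonoplast (TIP) 16 fell (13 to 17) and none rose, with a median of −2.38. With the length correction 16 fell, with a median of −2.01. TIP2;2 (AT4G17340) was at 146, 154 and 180.2 CPM at NonA and 13.9, 15.6 and 9.33 CPM at ACC (log2 fold change −3.63 ± 0.40, adjusted p = 2.9e-07). PIP2B (AT2G37170) was at 100.5, 126 and 128 CPM at NonA and 9.37, 13.6 and 11.8 CPM at ACC (log2 fold change −3.35 ± 0.42, adjusted p = 1.4e-06) and GAMMA-TIP (AT2G36830) at 806, 782 and 1199 CPM at NonA and 68.4, 82.4 and 141 CPM at ACC (log2 fold change −3.25 ± 0.41, adjusted p = 1.5e-06). The highest ACC value of each was far below its lowest NonA value. DELTA-TIP went from 1184 ± 351 to 78.7 ± 65.7 CPM. PIP1;4 (AT4G00430) and PIP2;5 (AT3G54820) were not called, at −0.06 ± 0.22 and −0.70 ± 0.31, and PIP1;4 held 211 ± 29.6 CPM at ACC.

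Of 64 SAUR genes, small auxin-induced promoters of cell expansion, 45 fell (37 to 47) and none rose, with a median of −2.12. They are short, with a median of 836.5 bases of exon, in a length class where 31.4% of all genes fell. With the length correction 40 of them fell, with a median of −1.59. SAUR19 (AT5G18010) was at 0.589, 1.51 and 1.7 CPM at NonA and 0, 0 and 0.0148 CPM at ACC (adjusted p = 4.4e-06), too few counts at ACC for a fold change. SAUR22 (AT5G18050) was at 2.6, 3.64 and 2.13 CPM at NonA and 0.140, 0.230 and 0.192 CPM at ACC (log2 fold change −3.87 ± 0.58, adjusted p = 1.4e-05) and AT2G21210 at 26.6, 30.8 and 35 CPM at NonA and 8.00, 8.36 and 8.63 CPM at ACC (log2 fold change −1.89 ± 0.29, adjusted p = 1.8e-05). The groups did not overlap in any of the 3. The Aux/IAA set, auxin co-repressors that auxin itself induces, held 22 genes by name, of which 9 fell (8 to 10) and 2 rose (0 to 3). Both rises were auxin response factors that carry an IAA synonym, and without the 3 such genes, a choice made after seeing them, 9 of 19 fell and none rose. IAA19 (AT3G15540) was at 8.83, 15 and 7.81 CPM at NonA and 1.24, 1.25 and 2.38 CPM at ACC (log2 fold change −2.67 ± 0.47, adjusted p = 8.8e-05), IAA16 (AT3G04730) at 65.8, 85.9 and 68.9 CPM at NonA and 23.8, 27.4 and 26.6 CPM at ACC (log2 fold change −1.5 ± 0.19, adjusted p = 1.2e-06) and IAA8 (AT2G22670) at 156, 181 and 198 CPM at NonA and 51.4, 62.2 and 76.1 CPM at ACC (log2 fold change −1.49 ± 0.26, adjusted p = 8.9e-05). The falls were seen in all 3 ACC libraries.

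Of 25 ethylene genes 8 fell (5 to 11) and 1 rose (1 to 3), with a median of −0.44. ACS8 (AT4G37770), of the enzyme family that makes the ethylene precursor, was at 2.65, 5.60 and 2.55 CPM at NonA and 0.281, 0.394 and 0.444 CPM at ACC (log2 fold change −3.24 ± 0.55, adjusted p = 7.2e-05). ETP1 (AT3G18980), an F-box protein acting on EIN2, was at 29.3, 27.4 and 28.1 CPM at NonA and 9.60, 11.2 and 13.4 CPM at ACC (log2 fold change −1.31 ± 0.17, adjusted p = 3.5e-06). EIN4, a receptor, was the 1 member that rose (1.32 ± 0.37). Of 33 cytokinin genes 4 fell (3 to 11) and 2 rose (0 to 3), with a median of −0.44 and 9 falls with the length correction. ARR4 (AT1G10470), a type-A response regulator, was at 270, 404 and 480 CPM at NonA and 58.7, 95.1 and 138 CPM at ACC (log2 fold change −1.99 ± 0.54, adjusted p = 0.0054), RR1 (ARR1, AT3G16857), a type-B activator, at 34.6, 45.5 and 36.4 CPM at NonA and 12.7, 15.3 and 19.3 CPM at ACC (log2 fold change −1.30 ± 0.20, adjusted p = 2.1e-05) and AHP5 (AT1G03430), a phosphotransfer protein, at 22.6, 27.3 and 21.8 CPM at NonA and 7.75, 7.97 and 11.1 CPM at ACC (log2 fold change −1.41 ± 0.32, adjusted p = 0.0013). WOL, a cytokinin receptor gene, rose (1.56 ± 0.56).

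Many genes of the machinery that makes and handles RNA and protein rose. Of 27 cytosolic ribosomal protein genes found by name 15 rose (11 to 22) and 2 fell (0 to 4), with a median of 0.68. The set holds only genes with a symbol or synonym of the form RPL24A and need not cover the whole family. RPL24A (AT2G36620) was at 149, 104 and 138 CPM at NonA and 413, 345 and 332 CPM at ACC (log2 fold change 1.48 ± 0.20, adjusted p = 4.8e-06), RPL5B (AT5G39740) at 312, 223 and 274 CPM at NonA and 772, 786 and 612 CPM at ACC (log2 fold change 1.42 ± 0.23, adjusted p = 4.5e-05) and RPL23AB (AT3G55280) at 91.4, 72 and 87.8 CPM at NonA and 219, 209 and 199.9 CPM at ACC (log2 fold change 1.32 ± 0.23, adjusted p = 8.1e-05). These genes are short, with a median of 973 bases of exon, in a length class where 7.30% of all genes rose, and with the length correction 22 of 27 rose. RPL21C, which encodes a plastid-type L21, is 1 of the 2 that fell. Of 50 translation initiation factor genes 24 rose (19 to 30) and 5 fell (1 to 7), with a median of 0.76. AT4G20980, an eIF3 subunit, was at 71.1, 56.9 and 55.6 CPM at NonA and 178, 150.5 and 136 CPM at ACC (log2 fold change 1.34 ± 0.22, adjusted p = 3.8e-05) and AT1G71350, of the SUI1 family, at 9.76, 8.74 and 8.56 CPM at NonA and 21.5, 19.7 and 19.7 CPM at ACC (log2 fold change 1.17 ± 0.15, adjusted p = 2.4e-06). AT4G30690, an IF3-type factor of the bacterial kind, went the other way, at 57.4, 67.1 and 75.4 CPM at NonA and 9.77, 8.59 and 13.1 CPM at ACC (log2 fold change −2.66 ± 0.27, adjusted p = 8.7e-08).

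Among 52 genes whose product name holds a tRNA synthetase or ligase 25 rose (15 to 33) and 5 fell (3 to 7). The name catches proteins that are not synthetases. Without 18 such genes, a choice made after the members were seen, 23 of 34 rose and none fell, with a median of 0.98. AT5G26710, a glutamyl-tRNA synthetase, was at 49.1, 42.1 and 38.7 CPM at NonA and 102, 97.5 and 95.9 CPM at ACC (log2 fold change 1.18 ± 0.27, adjusted p = 0.0012). The set's strongest falls, AT3G10250 (−1.77 ± 0.22) and AT5G10695 (−2.92 ± 0.66), were among the 18, and AT5G10695 overlaps an antisense gene over 78.9% of its exonic length, which unstranded counts cannot separate.

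As fitted, RNA helicases had the highest median of all lists and families. Of 62 genes named as DEAD-box or related RNA helicases, enzymes that unwind RNA structure, 48 rose (37 to 51) and 3 fell (1 to 4), with a median of 1.55. Without 11 genes named for DNA helicases or only helicase-like, again chosen after the members were seen, 45 of 51 rose (88.2%) and none fell, with a median of 1.58. AT1G72730, annotated in the DEA(D/H)-box family, was at 15.8, 12.8 and 14.9 CPM at NonA and 47.9, 48.9 and 49.4 CPM at ACC (log2 fold change 1.74 ± 0.21, adjusted p = 1.2e-06). ATSUV3 (AT4G14790), a mitochondrial helicase of RNA turnover, was at 10.7, 8.79 and 8.66 CPM at NonA and 25.6, 23.6 and 22.4 CPM at ACC (log2 fold change 1.34 ± 0.19, adjusted p = 6.2e-06). UAP56b (AT5G11200), an mRNA export factor, was at 77, 66.1 and 66 CPM at NonA and 161, 183 and 144 CPM at ACC (log2 fold change 1.22 ± 0.17, adjusted p = 8e-06). Its near-identical copy UAP56a (AT5G11170) was at 0.69 ± 0.17, and how reads were split between the copies is uncertain. Helicase genes are long, and in the longest quintile of genes 39.5% rose. With the length correction 41 of 62 rose and 3 fell, and the median became 0.77. This was below 1.18 for cytosolic ribosomal proteins and 0.95 for PPR proteins. With the correction and without the 11 genes, 39 of 51 rose and 1 fell. Their median of 0.985 was below 1.18 and above 0.95.

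The list of cold shock domain proteins, glycine-rich RNA-binding proteins and cold-linked helicases held 14 tested genes, of which 8 rose (6 to 8) and 3 fell (1 to 3). Its leading rises were helicases: STRS2 (AT5G08620) was at 18.3, 10.8 and 9.74 CPM at NonA and 68, 63.4 and 57.4 CPM at ACC (log2 fold change 2.28 ± 0.33, adjusted p = 9.2e-06), STRS1 (AT1G31970) at 42.2, 30.8 and 36 CPM at NonA and 145, 153 and 98.9 CPM at ACC (log2 fold change 1.86 ± 0.29, adjusted p = 2.1e-05) and PRH75 (RH7, AT5G62190), which takes part in ribosomal RNA processing in the cold, at 89.9, 58.4 and 61.1 CPM at NonA and 286, 251 and 203 CPM at ACC (log2 fold change 1.82 ± 0.32, adjusted p = 0.0001). Of the cold shock domain genes CSDP1 (CSP1) rose (0.99 ± 0.19), GRP2B (CSP4) and GRP2 (CSP2) fell (−1.18 ± 0.35 and −1.10 ± 0.39), and CSP3 was not called (0.07 ± 0.19). SR splicing factors were split, with 6 of 20 higher (4 to 7) and 5 lower (5 to 6). SCL33 (AT1G55310) was at 25, 29.4 and 22.2 CPM at NonA and 6.68, 7.54 and 6.68 CPM at ACC (log2 fold change −1.87 ± 0.19, adjusted p = 1.2e-07) and RSZ21 (AT1G23860) at 18.2, 19 and 18.4 CPM at NonA and 6.54, 6.56 and 6.74 CPM at ACC (log2 fold change −1.48 ± 0.20, adjusted p = 3.6e-06), and RS2Z33 fell as well (−1.30 ± 0.21, adjusted p = 2.8e-05), while RS40 and RS2Z32 rose (1.12 ± 0.20 and 0.99 ± 0.18).

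Pentatricopeptide repeat (PPR) proteins edit, splice and stabilise plastid and mitochondrial transcripts. Of 278 genes named so 183 rose, 65.8%, and 7 fell, with a median of 1.28 (rises 100 to 215, falls 4 to 9). The quartiles were 0.79 and 1.72. PPR596 (AT1G80270) was at 14.5, 8.29 and 8.14 CPM at NonA and 66.5, 63.6 and 44.5 CPM at ACC (log2 fold change 2.5 ± 0.42, adjusted p = 5.7e-05), AT1G74750 at 6.62, 6.33 and 5.11 CPM at NonA and 19.6, 19.7 and 23.4 CPM at ACC (log2 fold change 1.79 ± 0.23, adjusted p = 2.5e-06) and AT1G79080 at 14.2, 10.6 and 11.4 CPM at NonA and 39.1, 36.2 and 32.5 CPM at ACC (log2 fold change 1.57 ± 0.25, adjusted p = 3.8e-05). With the length correction 161 rose and 6 fell, with a median of 0.95. The lowest count of rises, 100, came from leaving out a single library.

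Protein removal was divided. Of 33 proteasome subunit genes 12 rose (6 to 17) and 0 fell (0 to 3), with log2 fold changes from −0.62 to 1.24. PAG1 (AT2G27020), a core subunit, was at 73.2, 68.1 and 71.6 CPM at NonA and 123, 119 and 119 CPM at ACC (log2 fold change 0.76 ± 0.17, adjusted p = 0.00089). EMB2107 (AT5G09900), a subunit of the regulatory cap, was at 60.7, 60.7 and 52.3 CPM at NonA and 109.9, 117 and 86.5 CPM at ACC (log2 fold change 0.85 ± 0.23, adjusted p = 0.0045). RPT6A (AT5G19990), which has a near-identical copy, AT5G20000, was at 34.9, 31.8 and 35.4 CPM at NonA and 60.9, 52.2 and 60.7 CPM at ACC (log2 fold change 0.77 ± 0.18, adjusted p = 0.0016). Of 39 genes with an autophagy-type name 14 fell (10 to 19) and 4 rose (3 to 10). In 11 of them the name or a synonym stands for another protein, among them ACX4, an acyl-CoA oxidase (−1.96 ± 0.28), and SAC8, a phosphoinositide phosphatase (−1.11 ± 0.18). Of the other 28, again chosen after the members were seen, 12 fell and none rose, with a median of −0.52. ATG8F (AT4G16520), a ubiquitin-like protein of the autophagosome, was at 73.7, 88 and 96.5 CPM at NonA and 17.5, 16 and 24.6 CPM at ACC (log2 fold change −2.15 ± 0.33, adjusted p = 2.1e-05).

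Nitrogen, sulfur and glucosinolate genes moved in both directions with medians of −0.04, −0.01 and −0.12. Of 22 nitrogen genes 3 rose (2 to 8) and 5 fell (3 to 7). NRT1.7 (AT1G69870), which moves nitrate out of older leaves, was at 75.8, 78.5 and 50.9 CPM at NonA and 249.5, 252 and 257 CPM at ACC (log2 fold change 1.89 ± 0.23, adjusted p = 1.2e-06). GS2 (AT5G35630), plastid glutamine synthetase, was at 1562, 1243 and 1796 CPM at NonA and 621, 617 and 743 CPM at ACC (log2 fold change −1.22 ± 0.27, adjusted p = 0.0012) and GDH1 (AT5G18170), glutamate dehydrogenase, at 31.8, 48.7 and 27.5 CPM at NonA and 5.28, 7.22 and 10.3 CPM at ACC (log2 fold change −2.24 ± 0.36, adjusted p = 3.1e-05). Of 27 sulfate and glutathione genes 4 rose (4 to 5) and 6 fell (0 to 10). APR2 (AT1G62180), the main APS reductase, was at 22.8, 19.7 and 27.2 CPM at NonA and 51.7, 57 and 72.7 CPM at ACC (log2 fold change 1.38 ± 0.29, adjusted p = 0.00056), and 46.4% of its exonic length overlaps an antisense gene. The ATP sulfurylase genes were split, AT1G19920 (APS2) at 92.2, 66.9 and 91.3 CPM at NonA and 142, 145 and 136 CPM at ACC (log2 fold change 0.76 ± 0.19, adjusted p = 0.0026) and APS4 (AT5G43780) at 74.6, 115 and 92.4 CPM at NonA and 27.3, 35.9 and 52.5 CPM at ACC (log2 fold change −1.28 ± 0.37, adjusted p = 0.008). The call of APS4 was lost without ACC replicate 1 (adjusted p = 0.060). Of 29 glucosinolate genes 4 rose (1 to 7) and 6 fell (3 to 7). Regulators of the indole branch fell, MYB51 (AT1G18570) at 23.2, 40.9 and 18.3 CPM at NonA and 4.27, 3.35 and 11 CPM at ACC (log2 fold change −2.13 ± 0.56, adjusted p = 0.004) and MYB34 by 1.74 on the log2 scale. NSP1, a nitrile specifier protein of glucosinolate breakdown with a near-identical copy, AT3G16410, fell (−1.60 ± 0.22, adjusted p = 5.4e-06). The aliphatic chain elongation genes IMS2 (MAM3, AT5G23020) and MAM1 rose, with 1.22 ± 0.33 and 0.97 ± 0.35.

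In the cell wall list 6 of 26 rose (5 to 9) and 3 fell (2 to 8, with 7 under the length correction). Its leading rises were the entry enzymes of phenylpropanoid synthesis, PAL1 (AT2G37040) at 44.4, 35.5 and 34.8 CPM at NonA and 435, 499 and 154 CPM at ACC (log2 fold change 3.25 ± 0.48, adjusted p = 1.2e-05) and PAL2 (AT3G53260) at 33.5, 32 and 31.1 CPM at NonA and 259, 254 and 189 CPM at ACC (log2 fold change 2.86 ± 0.44, adjusted p = 1.8e-05). ACC replicate 3 was the lowest ACC value of both. OMT1 (COMT1, AT5G54160), a lignin methyltransferase, was at 175, 177 and 179 CPM at NonA and 86.5, 85.2 and 76.9 CPM at ACC (log2 fold change −1.10 ± 0.27, adjusted p = 0.0023). Of 15 tubulin genes 2 rose and 5 fell. TUB9 was at 105, 72.7 and 79.7 CPM at NonA and 166, 159 and 196 CPM at ACC (log2 fold change 1.02 ± 0.21, adjusted p = 0.00057), TUB6 at 209.6, 206 and 214 CPM at NonA and 85.6, 92.8 and 132 CPM at ACC (log2 fold change −1.02 ± 0.23, adjusted p = 0.0013) and TUB8 at 38.3, 28.5 and 33.2 CPM at NonA and 9.96, 11.3 and 10.2 CPM at ACC (log2 fold change −1.67 ± 0.27, adjusted p = 4.3e-05). Of 8 actins 1 fell, ACT3 (−1.36 ± 0.22), and of 20 histones 2 rose and 5 fell (7 and 3 with the length correction), HTA12 at 10.2, 11.2 and 15.8 CPM at NonA and 2.13, 2.66 and 1.84 CPM at ACC (log2 fold change −2.49 ± 0.37, adjusted p = 1.4e-05) and RAT5 at 30.6, 47.3 and 42.3 CPM at NonA and 10.4, 12.8 and 15.7 CPM at ACC (log2 fold change −1.63 ± 0.40, adjusted p = 0.0025). HTB2, an H2B gene, rose (0.82 ± 0.20, adjusted p = 0.0019). HTA12 shares 34.7% of its exonic bases with an opposite gene.

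Regulator families moved near or below the background. Of 75 NAC genes 2 rose (2 to 8) and 12 fell (6 to 16), of 61 WRKY genes 8 rose (3 to 10) and 10 fell (5 to 17). NAC13 (AT1G32870), a regulator of the response to mitochondrial dysfunction, was at 3.43, 4.59 and 3.36 CPM at NonA and 16.9, 14.5 and 8.60 CPM at ACC (log2 fold change 1.81 ± 0.40, adjusted p = 0.00094), and NAM (AT1G52880) at 17.5, 32.7 and 30.7 CPM at NonA and 4.21, 4.63 and 5.77 CPM at ACC (log2 fold change −2.47 ± 0.55, adjusted p = 0.0011). NAC057 had a log2 fold change of −1.34 ± 0.31 (adjusted p = 0.0017), WRKY47 of −1.24 ± 0.27 (0.0009) and WRKY11 of −1.08 ± 0.25 (0.0017). TTG2 (AT2G37260), the WRKY factor of trichomes and seed coat, was at 1.91, 1.29 and 1.37 CPM at NonA and 20, 19.9 and 3.89 CPM at ACC (log2 fold change 3.25 ± 0.59, adjusted p = 0.00014). Its ACC replicate 3 value was far below the other 2 and above all NonA values. Of 24 CIPK kinases, which read calcium through CBL sensors, 5 rose and 5 fell. CIPK25 (AT5G25110) was at 1.86, 1.29 and 1.75 CPM at NonA and 57.8, 33 and 60.7 CPM at ACC (log2 fold change 4.94 ± 0.74, adjusted p = 1.6e-05) and CIPK12 (AT4G18700) at 40.8, 46.1 and 42.7 CPM at NonA and 110.2, 111 and 85.3 CPM at ACC (log2 fold change 1.24 ± 0.21, adjusted p = 5.8e-05). AT5G58380, of the same kinase family, was at 9.17, 8.01 and 7.66 CPM at NonA and 30.1, 25.8 and 16.9 CPM at ACC (log2 fold change 1.55 ± 0.28, adjusted p = 0.00015).

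The count for disease resistance genes of the NLR type depended on the scale. Of 126 members 16 rose (1 to 54) and 4 fell (1 to 32), with a median of 0.57, but with the length correction 1 rose and 23 fell, with a median of −0.40. With the length correction within groups 45 rose and 4 fell. AT5G35450, of the CC-NBS-LRR class, was at 3.39, 3.87 and 2.41 CPM at NonA and 14.4, 12.8 and 7.93 CPM at ACC (log2 fold change 1.86 ± 0.46, adjusted p = 0.0026). AT1G65850, another NLR gene, was at 0.147, 0.168 and 0.331 CPM at NonA and 0, 0 and 0.0296 CPM at ACC (adjusted p = 0.0042), too few counts at ACC for a fold change. AT1G72890, of the TIR-NBS class, was at 3.19, 4.15 and 2.89 CPM at NonA and 1.8, 1.8 and 1.45 CPM at ACC (log2 fold change −1.02 ± 0.31, adjusted p = 0.012), a call lost with the first strand column (adjusted p = 0.10) and without NonA replicate 2 (0.064).

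**Figure D3:**
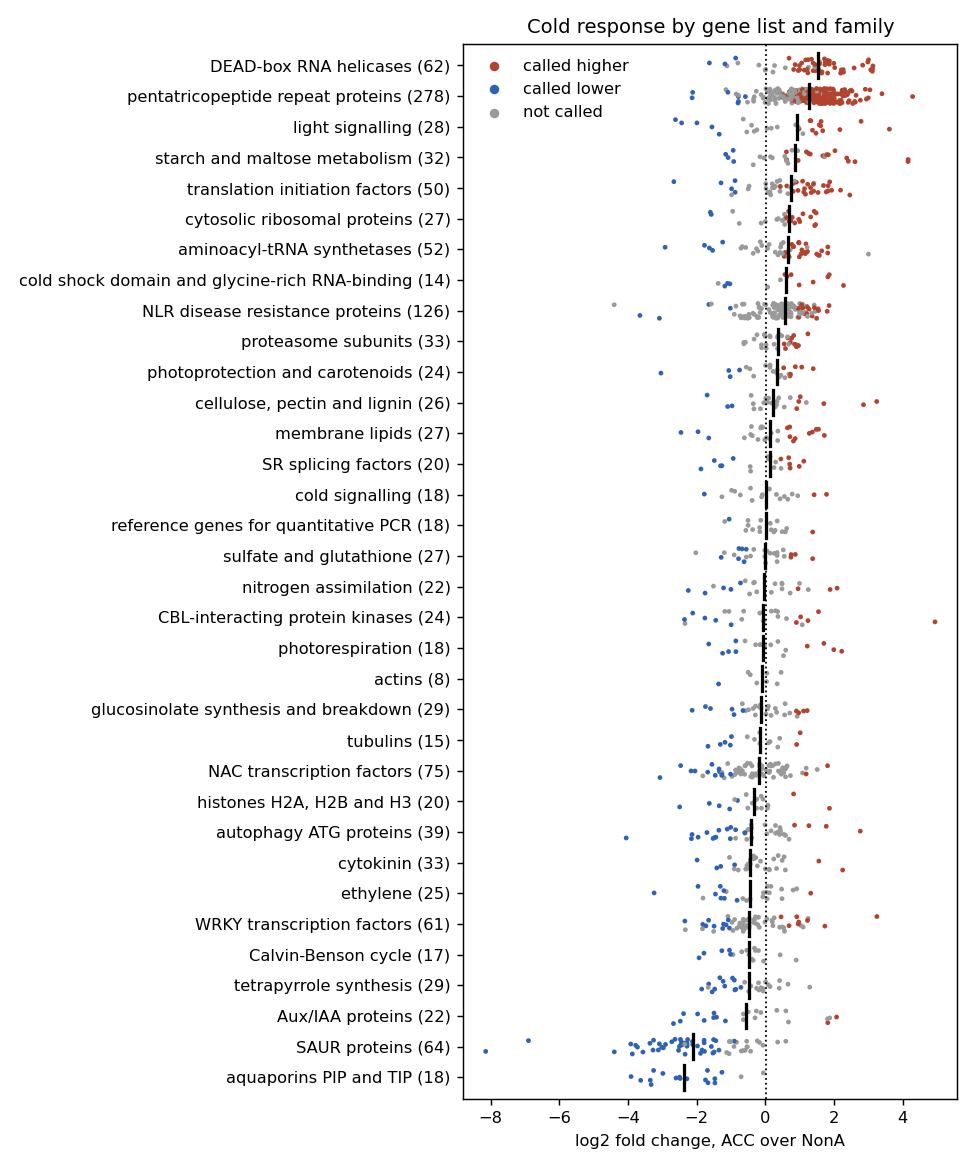
Log2 fold change of ACC over NonA (horizontal axis) for every tested member of 17 gene lists and 17 families (vertical axis, tested members in brackets), as points coloured by call, with a black bar at the median and a dotted line at the median of all tested genes. Medians run from −2.38 for aquaporins to 1.55 for RNA helicases. The families found by product name or synonym include the few misnamed genes given in the text.

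Transcript length went with the response across the whole genome. The share of genes that rose was 7.30%, 12.4%, 18.9%, 26.5% and 39.5% from the shortest to the longest quintile by exonic length, and the share that fell 31.4%, 31.3%, 21.9%, 14.4% and 4.58%. Median log2 fold changes ran from −0.65 to 0.83. Across 20547 genes, which are not independent replicates, Spearman's rho of the response with length was 0.447, against 0.178 with GC content and 0.067 with mean CPM over 20679 genes. In the mutant lines rho with length was 0.452 and 0.463. Within Col0 libraries log2 CPM rose per doubling of length by 1.17, 1.06 and 0.986 at ACC and 0.675, 0.485 and 0.389 at NonA. These groups did not overlap, nor did those of jub1, at 0.836 to 1.08 and 0.205 to 0.498. In mbf1c they did, with 0.713 in ACC replicate 3 and 0.877 in NonA replicate 1. Col0 libraries 2 days after the cold were at 0.869, 1.19 and 0.436. The part of library preparation in this trend was not tested. Removing each library's own length trend (called the length correction) left 4309 rises and 4043 falls, with 19.4% to 22.1% of genes higher and 16.8% to 21% lower in every length class. The correction removes every difference that follows length, of whatever origin.

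**Figure D4:**
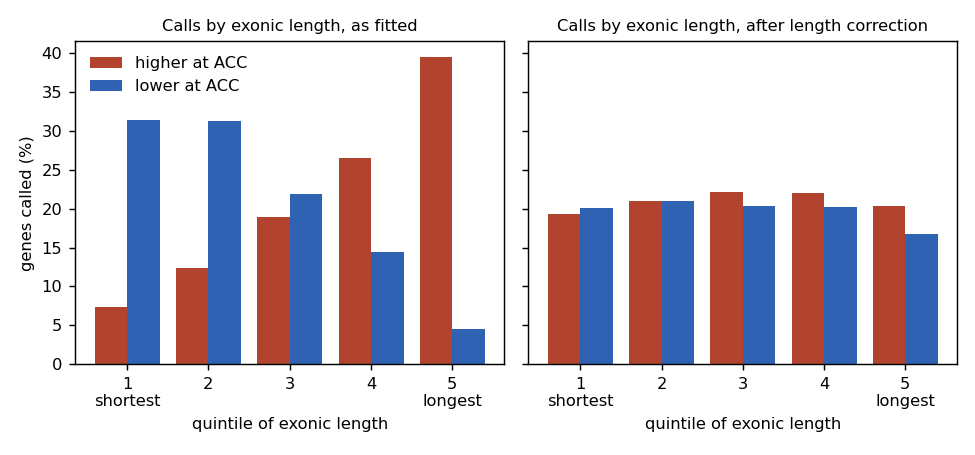
Percent of tested genes called higher (red) and lower (blue) at ACC in each quintile of genes by exonic length (horizontal axis, shortest to longest), as fitted (left) and after the length correction (right). As fitted the share that rose climbs from 7.30% to 39.5%, and after correction the 5 classes lie between 19.4% and 22.1%.

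Small changes could be called in abundant genes of translation, metabolism and the chloroplast. Among abundant genes with called changes under 2-fold, ATMS1 (AT5G17920), a methionine synthase, was at 1366, 1501 and 1316 CPM at NonA and 2509, 2221 and 2868 CPM at ACC (log2 fold change 0.86 ± 0.29, adjusted p = 0.02). AT3G04840, ribosomal protein S3Ae, was at 725, 610.3 and 737 CPM at NonA and 1039, 1157 and 1252 CPM at ACC (log2 fold change 0.73 ± 0.24, adjusted p = 0.016), emb2386 (AT1G02780), ribosomal protein L19e, at 600.2, 519 and 599.6 CPM at NonA and 868, 864 and 917 CPM at ACC (log2 fold change 0.62 ± 0.21, adjusted p = 0.021) and NDPK1 (AT4G09320), a nucleoside diphosphate kinase, at 259, 234 and 259.7 CPM at NonA and 327, 378 and 388 CPM at ACC (log2 fold change 0.54 ± 0.21, adjusted p = 0.037). The groups did not overlap in any of the 4. On the lower side ATPC1 (AT4G04640), the gamma subunit of the chloroplast ATP synthase, was at 1409, 1265 and 1644 CPM at NonA and 714, 699.6 and 1029 CPM at ACC (log2 fold change −0.82 ± 0.21, adjusted p = 0.0037). CRD1 (AT3G56940), a chlorophyll synthesis enzyme, was at 1899, 1944 and 2585 CPM at NonA and 889, 781 and 1770.4 CPM at ACC (log2 fold change −0.90 ± 0.34, adjusted p = 0.037), RBP31 (AT4G24770), a chloroplast RNA-binding protein, at 1368, 1579 and 2132 CPM at NonA and 715, 778 and 1239 CPM at ACC (log2 fold change −0.89 ± 0.35, adjusted p = 0.04) and ROC4 (AT3G62030), a chloroplast cyclophilin, at 1032, 861 and 1265 CPM at NonA and 512, 531 and 821 CPM at ACC (log2 fold change −0.76 ± 0.31, adjusted p = 0.048). These small changes lie close to the threshold. Among the 8 genes ATPC1 alone kept its call under the alternatives run for single genes, which leave out the 1.5-fold threshold. Leaving out NonA replicate 2 ended the calls of emb2386 (adjusted p = 0.083), AT3G04840 (0.070), NDPK1 (0.11), CRD1 (0.059), RBP31 (0.067) and ROC4 (0.052), and the log2 fold change of ATMS1 was 0.06 with the length correction (adjusted p = 0.88).

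The most abundant genes with a 95% interval inside −0.5 to 0.5 were TUF, AT2G42590, ALB3, AT4G09000, ATPQ and PAB2. PAB2 (AT4G34110), a poly(A)-binding protein, was at 467, 535 and 525 CPM at NonA and 474, 487 and 630.4 CPM at ACC. ALB3 (AT2G28800), which inserts antenna proteins into thylakoids, was at 363, 342 and 389.7 CPM and 376, 386 and 338 CPM, and TUF (AT4G11150), a subunit of the vacuolar proton pump, at 251, 238 and 258 CPM and 218, 252 and 249 CPM. In all 3 genes the values of the groups overlapped. The 14-3-3 genes AT4G09000 and AT2G42590 had log2 fold changes of 0.02 ± 0.19 and −0.04 ± 0.20, and ATPQ (AT3G52300), a mitochondrial ATP synthase subunit, 0.04 ± 0.21. ATPQ became a called rise with the length correction (0.55, adjusted p = 0.025). Of 18 genes often used as references in quantitative PCR 1 rose (1 to 3) and 1 fell (0 to 5). AT5G60390 was the 1 that rose, and UBC9 (AT4G27960), the 1 that fell, was at 194, 287 and 267 CPM at NonA and 105, 109 and 147 CPM at ACC (log2 fold change −1.05 ± 0.43, adjusted p = 0.049), with the call lost without NonA replicate 2 (0.13), among other alternatives. GAPC2, TUB2 and PP2AA3 stood at 0.15 ± 0.23, −0.16 ± 0.26 and 0.28 ± 0.26.

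Promoters were read as the 250 bases before and 50 after the annotated gene start, for 20546 tested genes, and 10 short motifs were counted on both strands. The telo-box AAACCCTA, found in promoters of many translation genes, was in 10.2% of promoters of genes that rose (95% Wilson interval 9.35% to 11.2%) and 2.63% of those that fell (2.19% to 3.16%), beside 5.63% of all tested genes. Site II, GGCCCA, another element of such genes, was in 25.9% and 14.3%, beside 18.5%. The CRT/DRE core CCGAC, bound by CBF factors, was in 18.9% and 13.7%, beside 16.1%, and the I-box GATAAG, known from light-regulated photosynthesis genes, in 11.8% and 18.8%, beside 14.7%. In the 250 bases before the start alone the telo-box was in 5.79% and 2.11%, beside 3.69%. Over the whole window its difference held its direction in every length class, with 23.3%, 14.3%, 11.5%, 8.56% and 7.02% of rising genes from shortest to longest and 3.49%, 2.41%, 2.00%, 1.86% and 3.72% of falling genes. The abscisic acid element core ACGTG was in 25.9% and 29.8%, beside 27.4%. The G-box CACGTG, which contains ACGTG, was in 8.98% and 9.33%, beside 8.70%. The evening element, AAATATCT, was in 6.63% of rising and 5.55% of falling promoters, and the W-box core, TTGAC, in 48.2% and 50%. The CAMTA element, CGCGT, was in 10% and 8.95%, and the TATA sequence TATAAA in 49.2% and 53.1%. Beside them stood 5.97%, 50.8%, 9.59% and 51.2% of all tested genes. Of the 27 ribosomal protein genes found by name 14 held a telo-box and 15 a site II. Of the 33 proteasome genes 1 held a telo-box and 15 a site II, and of the 18 aquaporin genes 0 and 1. A match is a description of letters, not of binding.

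**Figure D5:**
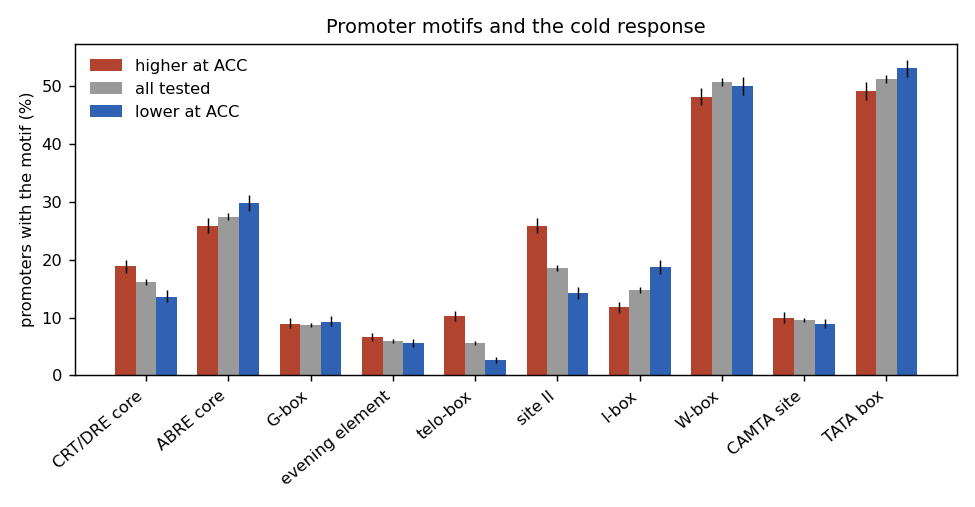
Percent of promoters (vertical axis) that hold each of 10 motifs (horizontal axis) on either strand, for genes called higher (red), all tested genes (grey) and genes called lower (blue), with 95% Wilson intervals for counting error. The telo-box stands at 10.2%, 5.63% and 2.63%, and the I-box runs the other way at 11.8%, 14.7% and 18.8%.

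The promoters printed here are those of the called genes with the smallest adjusted p that hold the telo-box or the CCGAC core among rises, or the I-box among falls, 2 each, to show where the letters lie. Sequences and coordinates are from RefSeq's TAIR10.1 assembly and annotation, written 5′ to 3′ on the gene's strand with the motif, or its reverse complement, in capitals. FIB2 (AT4G25630, chr4:13073840-13074139, plus strand), a fibrillarin of the nucleolus, was at 60.6, 46.2 and 50.8 CPM at NonA and 371, 407 and 332 CPM at ACC (log2 fold change 2.82 ± 0.28, adjusted p = 8.6e-08) and has its telo-box after the gene start. AT4G01985 (chr4:868204-868503, minus strand), a gene of no stated function here, was at 0, 0.112 and 0.0946 CPM at NonA and 7.94, 9.55 and 8.81 CPM at ACC, with the box just before the start.
FIB2: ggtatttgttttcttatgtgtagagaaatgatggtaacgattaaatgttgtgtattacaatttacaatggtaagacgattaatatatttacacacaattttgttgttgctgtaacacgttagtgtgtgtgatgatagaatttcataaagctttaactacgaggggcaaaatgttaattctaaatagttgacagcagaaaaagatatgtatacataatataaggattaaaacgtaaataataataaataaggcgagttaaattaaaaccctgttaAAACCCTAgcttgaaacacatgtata
AT4G01985: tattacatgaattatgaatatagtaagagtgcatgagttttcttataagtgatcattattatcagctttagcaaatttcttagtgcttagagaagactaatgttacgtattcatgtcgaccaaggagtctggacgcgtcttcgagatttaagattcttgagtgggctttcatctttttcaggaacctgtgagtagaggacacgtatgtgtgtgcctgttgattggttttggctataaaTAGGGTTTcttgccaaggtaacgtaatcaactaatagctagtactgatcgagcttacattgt
CLC-B (chr3:10023681-10023980, plus strand), with the values above, and AT1G15420 (chr1:5303473-5303772, minus strand), at 17.1, 13.8 and 13.5 CPM at NonA and 62, 54.1 and 48.2 CPM at ACC (log2 fold change 1.89 ± 0.20, adjusted p = 1.9e-07), each hold CCGAC as GTCGG after the start.
CLC-B: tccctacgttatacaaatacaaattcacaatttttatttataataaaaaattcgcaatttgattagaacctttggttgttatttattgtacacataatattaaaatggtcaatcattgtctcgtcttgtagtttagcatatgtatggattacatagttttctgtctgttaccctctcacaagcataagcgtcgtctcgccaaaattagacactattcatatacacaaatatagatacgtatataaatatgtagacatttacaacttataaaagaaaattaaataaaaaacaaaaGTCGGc
AT1G15420: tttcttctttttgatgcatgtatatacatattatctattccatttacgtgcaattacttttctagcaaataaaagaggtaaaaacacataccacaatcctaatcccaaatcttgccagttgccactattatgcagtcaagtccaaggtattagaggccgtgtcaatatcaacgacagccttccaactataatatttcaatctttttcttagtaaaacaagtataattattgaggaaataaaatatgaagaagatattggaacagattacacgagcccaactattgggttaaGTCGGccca
BCCP2 (chr5:5038313-5038612, plus strand) and KCS12 (chr2:12277368-12277667, minus strand), both falling, hold the I-box before the start, KCS12 as CTTATC.
BCCP2: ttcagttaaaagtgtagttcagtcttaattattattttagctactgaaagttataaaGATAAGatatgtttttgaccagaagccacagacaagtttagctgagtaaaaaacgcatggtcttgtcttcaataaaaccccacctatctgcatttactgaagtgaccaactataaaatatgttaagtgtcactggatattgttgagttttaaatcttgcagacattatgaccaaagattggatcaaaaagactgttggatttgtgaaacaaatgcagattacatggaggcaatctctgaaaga
KCS12: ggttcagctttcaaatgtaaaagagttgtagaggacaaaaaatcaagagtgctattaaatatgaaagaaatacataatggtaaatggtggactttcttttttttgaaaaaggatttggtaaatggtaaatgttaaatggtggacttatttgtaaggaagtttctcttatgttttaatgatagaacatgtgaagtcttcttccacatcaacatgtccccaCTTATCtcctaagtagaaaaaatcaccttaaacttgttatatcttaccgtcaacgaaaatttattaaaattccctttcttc

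The same contrast in the mutant lines, mbf1c and jub1, named for a transcriptional coactivator and a NAC factor, uses 6 libraries each that the Col0 comparison does not. MBF1C (AT3G24500) was at 3.83, 3.03 and 3.64 CPM in Col0 NonA and 1.74, 0.385 and 1.07 CPM in mbf1c NonA, and at 0.730, 0.754 and 0.666 CPM in Col0 ACC and 0.374, 0.381 and 0.341 CPM in mbf1c ACC. JUB1 (AT2G43000) was at 3.92, 5.60 and 2.79 CPM in Col0 NonA and 0.782, 0.482 and 0.605 CPM in jub1 NonA, and at 0.505, 0.722 and 1.45 CPM in Col0 ACC and 0.362, 0.407 and 0.429 CPM in jub1 ACC. Each line was thus below Col0 in the gene it is named for. Of the Col0 rises 87.9% were called higher in mbf1c, 82.7% of that line's rises, and 87.2% in jub1, likewise 82.7%. Of the falls 92.3% were called lower in mbf1c, 77% of its falls, and 89.6% in jub1, 80.2%. No Col0 call was called in the opposite direction. Across 20679 genes the log2 fold changes of Col0 had a Pearson r of 0.934 with mbf1c and 0.933 with jub1. Neither line called 292 of the rises (6.78%) and 197 of the falls (4.61%). The difference in response itself was called in 0 genes for mbf1c and 0 for jub1 by edgeR, with 62 and 76 of 20679 genes at an unadjusted p under 0.05, and in 0 by DESeq2. These are far fewer than a calibrated test gives with no difference, so the counts of 0 do not show that the lines responded alike. Of all tested genes 22.1% were called higher and 24.8% lower in mbf1c, and 21.9% and 23.1% in jub1, beside 20.8% and 20.7% in Col0. Counts for families are given beside these shares. Of 62 RNA helicases 49 in mbf1c and 51 in jub1 were higher. Of 18 aquaporins 17 in mbf1c and 16 in jub1 were lower, and of 64 SAUR genes 50 in mbf1c and 46 in jub1. NAC rises numbered 8 in mbf1c and 7 in jub1 against 2 in Col0, cytokinin falls 9 in mbf1c and 9 in jub1 against 4, nitrogen rises 6 in mbf1c and 5 in jub1 against 3 and glucosinolate rises 1 in mbf1c and 3 in jub1 against 4. ELIP1 had log2 fold changes of 8.76 in mbf1c and 8.41 in jub1, GBSS1 of 4.34 in mbf1c and 4.42 in jub1 and TIP2;2 of −3.68 in mbf1c and −3.62 in jub1. The proteasome genes had more rises in the mutants, 21 in mbf1c and 17 in jub1 against 12 in Col0. None of these differences in counts was tested.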

How the data were processed

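Whole rosettes of Arabidopsis were profiled by RNA-seq in 36 libraries, 3 for each of 12 groups. The authors aligned reads with STAR 2.6.0c to TAIR10, and DESeq2 is also named without its role, per the submitters' processing notes. No source used here gives the annotation release. The deposited files hold whole-number counts per gene, unstranded and for each strand. The unstranded column was used, and the 4 summary rows that name no gene were left out, so that 88.7% to 92.9% of the counted reads lay in genes. A first-strand share of 50.9% to 52.0% shows no strand information, so overlapping antisense genes cannot be separated.

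Counts were fitted with edgeR 4.0.16 in R 4.3.3 over all 36 libraries with 1 term per group (TMM scaling, filterByExpr, glmQLFit, glmQLFTest, Benjamini-Hochberg over 20679 tested genes at 0.05), and the fit was tested on simulated data. Standard errors came from the F statistic. Alternatives were RLE scaling, DESeq2 1.42.0, no filter, a replicate block, the 6 compared libraries alone, the first strand column, no organellar genes, a length correction (lowess of log counts on exonic length per library, or within groups), a 1.5-fold threshold (glmTreat) and leaving out each Col0 library. The ranges given with lists cover the length corrections, DESeq2, 6 libraries, block, first strand and left-out libraries. Names, exonic lengths and promoters came from RefSeq's TAIR10.1 annotation, matched by locus tag.

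Members and lists were chosen with earlier results of these data known. Named genes were up to 3 called members of each list, taken by lowest adjusted p. Among called genes whose groups did not overlap, the 8 rises and 8 falls with the largest difference in CPM per kilobase were added. The rule also took the 5 and 5 with the smallest adjusted p, the 6 most abundant steady genes, and the 4 and 4 most abundant called genes under 2-fold. 1 gene that this rule names is not reported here. Other list members are examples chosen after their values were seen. Families were found by product name and synonym, and trimming them, reading ACC libraries one by one and splitting motifs by length were chosen after seeing the data. Intervals of shares cover counting error only.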

Additional observations from a re-analysis of the deposited data

How the results depend on the processing

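Under the 18 alternatives for each direction, most counts of called genes lay within 1.5 times 4304 and 4275. A change beyond 1.5-fold (glmTreat) was called in 2031 genes higher and 2260 lower, and in 5632 genes in mbf1c and 4999 in jub1. Leaving out each Col0 library, each time 1 sample fewer, gave 2775 to 4201 rises and 2605 to 4042 falls. The fewest rises came without NonA replicate 2 and the fewest falls without ACC replicate 1. Both highest counts came without ACC replicate 3. The cause of these differences was not tested. Genes with an interval inside −0.5 to 0.5, 475 as reported, numbered 4992 for bounds of −1 to 1, 1212 with the 6 compared libraries alone, 1572 with those and a replicate block, 910 with the length correction, 1115 with that and a replicate block, and 200 to 239 with a library left out. The cause of these shifts in steady genes was not tested. The replicate block over all libraries gave 4801 rises and 4785 falls, the 6 libraries alone 5712 and 5376, these with the block 5960 and 5653, and the length correction with the block 4678 and 4501. Deviations of same-numbered ACC and NonA libraries correlated at 0.38, −0.12 and 0.13, so the numbers do not establish pairs, and not every library correlated best with its own number. DESeq2 gave 4626 and 4759, and no filter 3999 and 3937. No difference in response between lines was called under any alternative run. Of 131 named called genes 117 kept their call under the 17 alternatives run for single genes, which leave out the 1.5-fold threshold, and none changed direction. Of the genes in the lowest quintile of expression 24.7% were called, with a median standard error of 0.66. The part of depth was not tested.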
